A study of Mus musculus with 15 samples.

Results

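The 48 genes described here carry out mitosis. They were chosen as a functional set by symbol: mitotic kinases and cyclins, spindle checkpoint and anaphase genes, centromere and kinetochore genes, the chromosomal passenger complex, spindle motors, cytokinesis genes, and the proliferation genes Top2a, Mki67 and Cdca3. Each was measured by the brightest Affymetrix probe set annotated with its symbol alone, which gave values for 47 of the 48 members among 19296 genes in all. Ccnb1, a mitotic B-type cyclin, was not analysed here.

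The arrays carried RNA of bone marrow cells sorted from C57Bl/6 mice, and the study's title concerns replication stress in ageing haematopoietic stem cells. Haematopoietic stem cells (HSC), which give rise to all blood lineages, were gated as Lin-/cKit+/Sca1+/Flk2-/CD48-/CD150+ cells. Granulocyte/macrophage progenitors (GMP), which are committed to myeloid fates, were gated as Lin-/cKit+/Sca1-/FcyR+/CD34+ cells. Young mice were 6 to 12 weeks old and gave 5 HSC and 4 GMP arrays. Old mice were 22 to 30 months old and gave 3 HSC and 3 GMP arrays. All groups came from the same strain, were labelled male, and had no treatment or engineered allele in the labels. Cells were sorted in repeated passes and the small RNA amounts were amplified. Whether an array holds RNA of 1 mouse or of a pool is not given in the sources used here, so the p-values reflect array-to-array spread alone.

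The sort labels were checked against marker genes. All 6 measured HSC markers were higher in HSC at both ages, and all 8 GMP markers were lower in HSC. Slamf1 (CD150) among the former and Fcgr3 (FcyR) and Cd34 among the latter encode antigens of the gates. For these genes the check is not independent of the sort. Markers of other cell types also separated the sorts: 6 of 6 megakaryocyte markers were higher in HSC at both ages, with a summed level of 47.5 to 51.5 log2 in young HSC, 48.7 to 49.5 in old HSC, 41.6 to 42.8 in young GMP and 41.4 to 43.8 in old GMP. Of 6 mast cell and basophil markers 5 were lower and 1 was higher in HSC, with sums of 37.1 to 39.2 in young HSC, 39.2 to 40.4 in old HSC, 50.1 to 51.4 in young GMP and 52.0 to 53.3 in old GMP, and Mcpt8, Ms4a2 and Fcer1a lay below the lower quartile on every HSC array. Of 8 mature neutrophil markers 4 in young and 3 in old mice were lower in HSC. Their part in the differences of the mitotic genes between HSC and GMP was not tested. Despite the male label, the female-specific RNA Xist was at 8.92 to 11.51 log2 on 7 of the 9 young arrays, against 5.46 to 5.84 on the 6 old ones. Young HSC replicate 4 and young GMP replicate 4 had the lowest Y-linked level (4.94 and 5.20) and the narrowest interquartile range of their groups (2.21 and 2.13).

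Genes of mitosis are switched on together late in the cell cycle and are nearly silent in resting cells. Kinases such as Cdk1, Plk1 and the Aurora kinases start chromosome condensation and spindle assembly, kinetochores attach chromosomes to spindle microtubules, and the spindle checkpoint holds back anaphase until all are attached. Most HSC of the adult marrow rest outside the cell cycle, whereas progenitors such as GMP divide often, so the level of these genes in a sorted population is widely read as a measure of division. In such a bulk sample, fewer dividing cells and less of these RNAs per cell cannot be told apart.

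The late activation of these genes is known to run through promoter elements, chiefly the CCAAT box, bound by the factor NF-Y, and the CHR element, here TTTGAA or TTCGAA, bound by the DREAM and B-Myb/MuvB complexes. RefSeq promoter windows of GRCm38.p6, from 250 bases before to 50 bases after the gene start, were found for 40 of the 47 measured members. On either strand, CCAAT was present in 30 of the 40 windows (75.0%, against 41.8% of 15160 array genes with a window) and a CHR match also in 30 (75.0%, against 19.0%). The letters TTTGAA were found in 28 members (70.0%, against 17.2%), and the palindrome TTCGAA in 4 of 40 (against 2.12%). Both elements stood together in 26 of 40 members (65.0%) and in 7.66% of the array genes. A gene with several windows counted where any window matched, and a match is a description of letters, not evidence of binding. The sequences show how the elements lie before the gene start in members whose values are given array by array. Each runs 5′ to 3′ up to the base before the gene start, with CCAAT, read as ATTGG where it lies on the other strand, and CHR matches in capitals (TTCAAA is TTTGAA on the other strand).
Cdk1: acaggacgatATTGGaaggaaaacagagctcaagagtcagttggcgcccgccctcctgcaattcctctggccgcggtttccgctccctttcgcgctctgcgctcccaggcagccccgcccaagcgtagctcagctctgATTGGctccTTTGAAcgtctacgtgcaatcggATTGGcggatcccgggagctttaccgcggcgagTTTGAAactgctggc
Ccnb2: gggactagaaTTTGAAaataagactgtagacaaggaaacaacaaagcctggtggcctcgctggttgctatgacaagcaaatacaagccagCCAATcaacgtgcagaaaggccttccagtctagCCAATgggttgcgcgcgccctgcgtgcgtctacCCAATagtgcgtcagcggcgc
Mki67: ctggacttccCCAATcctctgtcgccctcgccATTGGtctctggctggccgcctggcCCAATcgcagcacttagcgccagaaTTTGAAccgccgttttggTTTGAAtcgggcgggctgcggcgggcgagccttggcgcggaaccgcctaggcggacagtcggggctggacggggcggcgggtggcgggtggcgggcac
Top2a: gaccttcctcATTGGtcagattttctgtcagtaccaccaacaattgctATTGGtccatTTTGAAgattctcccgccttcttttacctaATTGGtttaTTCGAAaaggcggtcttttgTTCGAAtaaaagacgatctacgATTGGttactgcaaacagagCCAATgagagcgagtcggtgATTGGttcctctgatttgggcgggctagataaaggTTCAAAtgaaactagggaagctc
Bub1b: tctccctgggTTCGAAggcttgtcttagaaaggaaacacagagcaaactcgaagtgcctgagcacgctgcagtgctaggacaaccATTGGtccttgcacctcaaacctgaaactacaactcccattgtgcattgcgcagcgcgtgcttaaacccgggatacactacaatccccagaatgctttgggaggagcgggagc
Cdc20: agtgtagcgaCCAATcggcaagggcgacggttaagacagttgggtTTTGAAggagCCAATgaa
Ect2: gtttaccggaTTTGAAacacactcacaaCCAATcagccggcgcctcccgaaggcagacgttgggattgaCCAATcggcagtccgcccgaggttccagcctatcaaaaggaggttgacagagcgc
In order, they lie at chr10:69352913-69353130 (reverse strand, Cdk1), chr9:70421555-70421731 (reverse strand, Ccnb2), chr7:135716380-135716577 (reverse strand, Mki67), chr11:99024190-99024426 (reverse strand, Top2a), chr2:118598013-118598210 (forward strand, Bub1b), chr4:118437344-118437406 (reverse strand, Cdc20) and chr3:27153879-27154002 (reverse strand, Ect2). Matches after the gene start are not shown or counted in these stretches. There, TTTGAA also began at base 5 in Ccnb2, base 41 in Bub1b and base 40 in Ect2. So the printed CHR match is not the only one in these 3 genes. Before the start, Top2a held the most matches, with 6 CCAAT and 4 CHR, and Cdk1 held 3 and 2. Mki67 held the same numbers of matches as Cdk1.

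Cell type was the comparison in which the mitotic genes differed most widely: nearly all of them were lower in HSC than in GMP at both ages. In young mice 44 of 47 members were lower in HSC at an adjusted p under 0.05 (limma, Benjamini-Hochberg over all genes), against 10.9% of all genes, and 0 were higher, against 13.6%. All 47 differences were below 0 (58.7% of all genes). The median was -0.94 log2 over the members and -0.05 over all genes, and the values ran from -1.82 for Kif15 to -0.11 for Cdc25b. In 36 members every young HSC array lay below every young GMP array, as it did for 9.51% of all genes. In old mice 46 of 47 members were lower in HSC, against 13% of all genes, and 0 were higher, against 9.25%. The difference was below 0 for the same 46 (46% of all genes), and all 46 also had groups without overlap, against 18.4%. The median over the 47 members was -1.47 log2, against 0.02 over all genes, with Ect2 at the far end at -2.51 ± 0.17 (SE). The difference was more negative in old than in young mice for 43 of the 47 members (lower in old mice for 47.6% of all genes). This change is the difference of both age effects described below, and its test called none of the members.

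**Figure D1:**
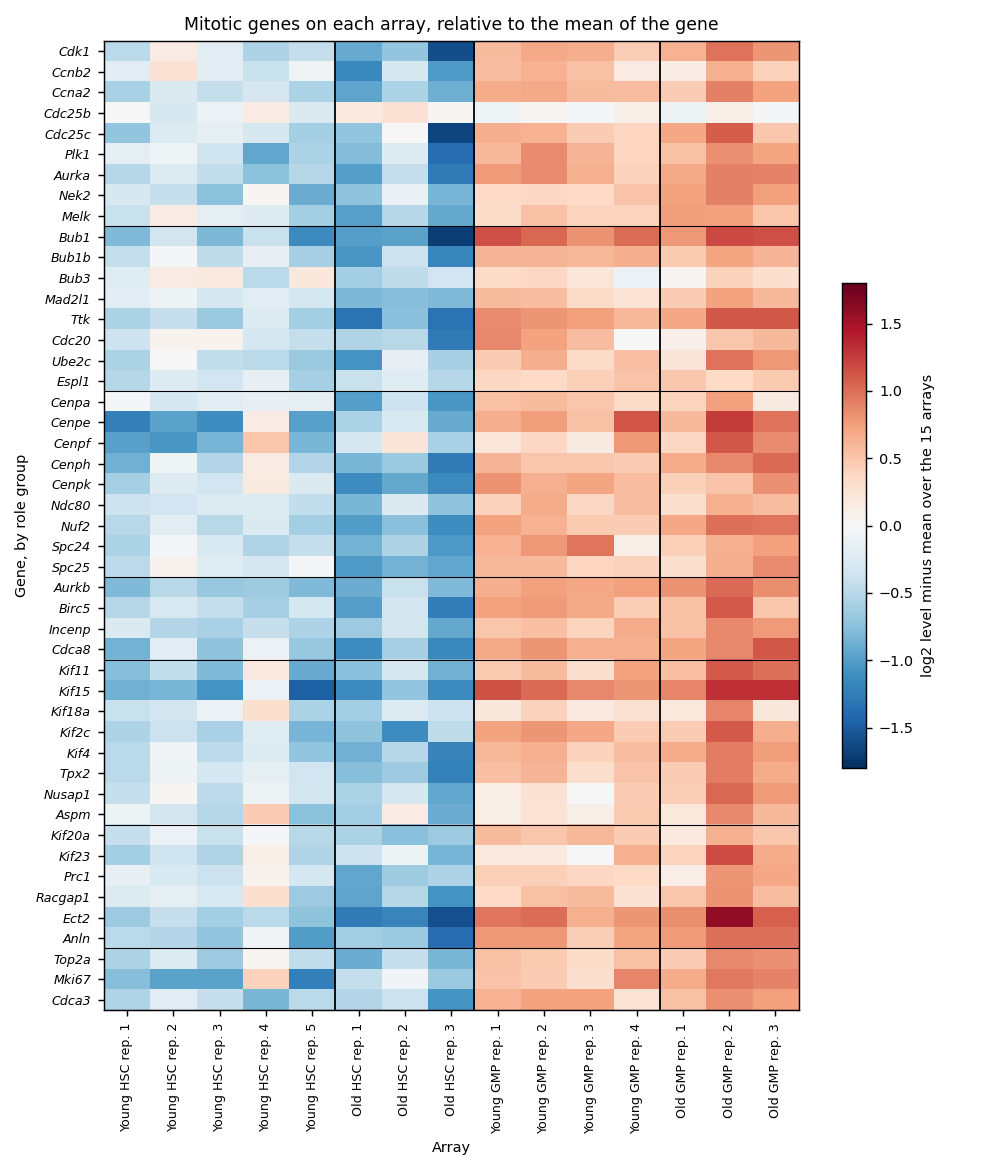
Log2 level of each of the 47 members (rows, by role group) on each of the 15 arrays (columns), as the difference from the mean of that gene over all arrays, with red above and blue below the mean. The 7 GMP arrays are red for nearly all members, and old HSC replicates 1 and 3, with mean levels of 8.20 and 8.03 log2 over the members, are the bluest.

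**Figure D2:**
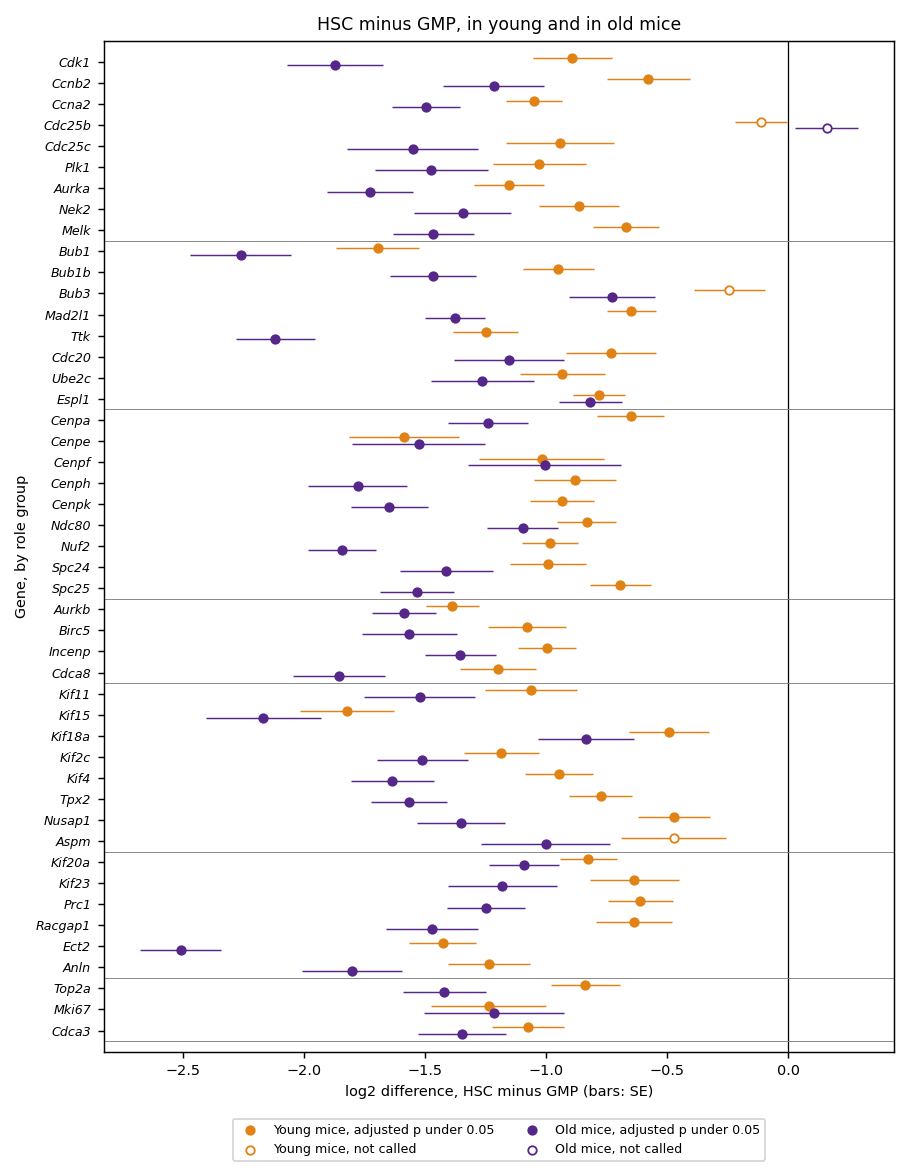
Difference between HSC and GMP in log2 for each member, in young mice (orange) and in old mice (purple), with bars for the SE and filled points for an adjusted p under 0.05. In young mice 44 members and in old mice 46 are filled and below 0, and the purple point lies further to the left for 43 of the 47.

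The exceptions were few. Cdc25b, a phosphatase that activates Cdk1, lay at 7.57, 7.27, 7.47, 7.72 and 7.31 log2 on the young HSC arrays, 7.74, 7.82 and 7.59 on the old HSC arrays, 7.49, 7.62, 7.53 and 7.68 on the young GMP arrays and 7.47, 7.68 and 7.53 on the old GMP arrays. Its groups overlapped throughout, and it was called in neither age (-0.11 ± 0.11 and 0.16 ± 0.13, SE). Bub3, a scaffold of the checkpoint proteins, and Aspm, a spindle pole protein, were called in old mice only. In young mice Bub3 differed by -0.24 ± 0.15 (limma adjusted p = 0.254) and Aspm by -0.47 ± 0.22 (0.132), and the difference of these values between the ages was not called for either. With the replicate number as a block within each age, Bub3 was also lower in young HSC (-0.30 ± 0.10, adjusted p = 0.0401), and without young HSC replicate 4, so was Aspm (-0.65 ± 0.19, adjusted p = 0.0142).

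With age, part of the set fell in HSC. In old HSC 14 of 47 members were lower than in young HSC (29.8%, against 9.22% of all genes) and 0 were higher (against 2.25%). They were Cdk1, Ccnb2, Melk, Bub1b, Mad2l1, Ttk, Cenpa, Cenpk, Nuf2, Spc25, Tpx2, Prc1, Racgap1 and Ect2. A further 14 had an unadjusted p under 0.05 without passing the adjustment, which makes 28 in all, against 31.4% of all genes. The differences of 43 of 47 members were below 0 (46.6% of all genes), with a median of -0.38 log2 against 0.03 over all genes. In 12 members every old HSC array lay below every young one (7.69% of all genes). The number of calls depended on single arrays and on scaling: it was 4 after quantile normalization of the arrays (4.03% of all genes lower), 1 with each array's interquartile range as a covariate (0.264%), 6 without old HSC replicate 1 (1.92%), 9 without young HSC replicate 2 (4.02%) and 19 without young HSC replicate 4 (17.9%), where a further 4 were called higher (9.62%). Without old HSC replicate 2 the number was 16, all lower (1.44% of all genes), with a median of -0.53 log2. Without old HSC replicate 3 the number was 10, all lower (12.2%), with a median of -0.28. The interquartile range was 2.21 to 2.69 log2 in young HSC and 1.96 to 2.33 in old HSC. With it as a covariate, the median over the members was -0.53 log2 (-0.04 over all genes), and 46 of 47 differences were below 0. After quantile normalization the median was -0.23 log2 (0.02 over all genes), and 36 were below 0. With the covariate the count of calls thus fell while the median difference grew in size. After quantile normalization both the count and the size of the median were smaller than in the main fit. With the young arrays limited to those with Xist near the old level (1 of HSC and 1 of GMP), 0 members were called (0.0933%) and 10 had an unadjusted p under 0.05. Of the marker genes with age in HSC, 1 of 8 GMP, 1 of 6 megakaryocyte and 1 of 5 endothelial markers were lower. Of 6 erythroid markers 1 was higher, with sums of 40.4 to 43.5 log2 in young and 42.3 to 42.9 in old HSC, and of 6 T and NK cell markers 1 was higher and 1 lower, with sums of 36.7 to 38.4 and 39.0 to 39.7. Their part in the age differences was not tested.

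**Figure D3:**
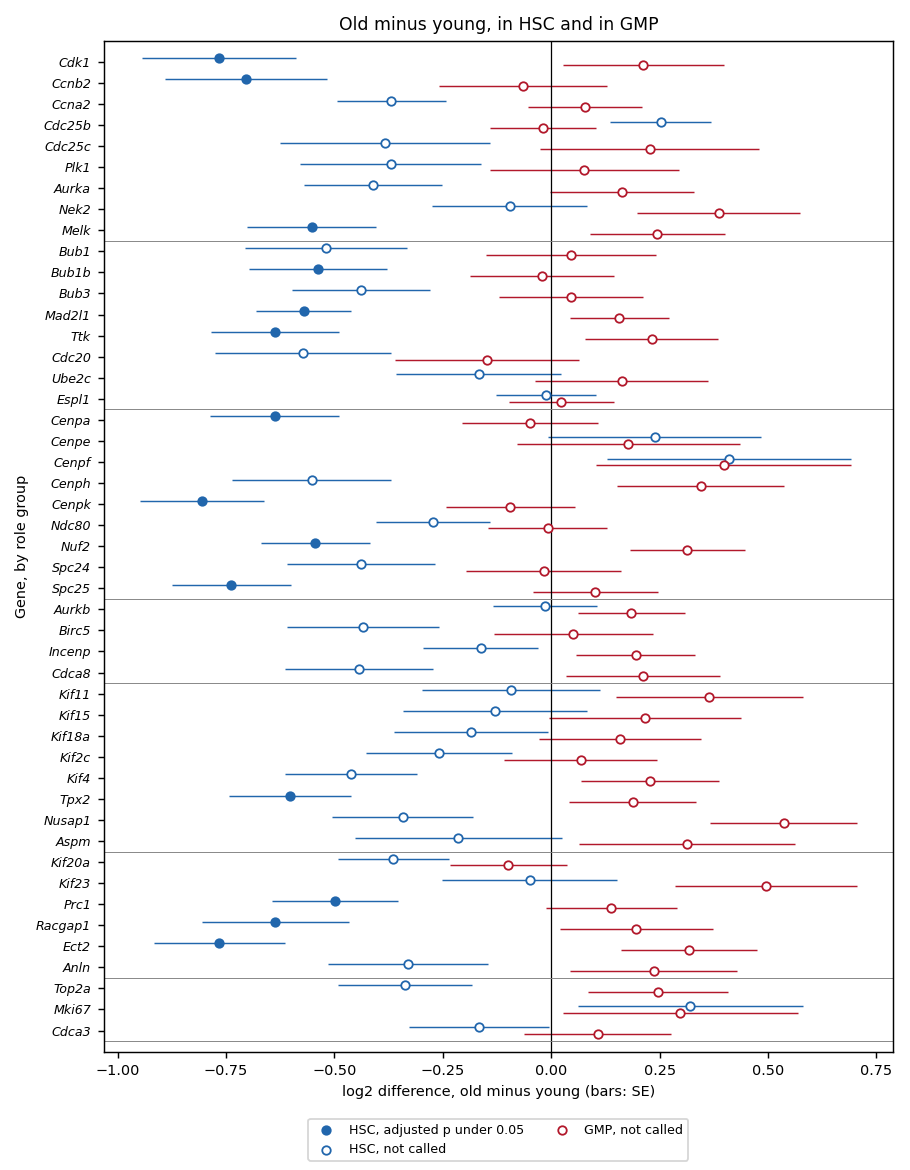
Difference between old and young mice in log2 for each member, in HSC (blue) and in GMP (red), with bars for the SE and filled points for an adjusted p under 0.05. In HSC 43 of 47 points lie below 0 and 14 are filled, whereas in GMP 38 of 47 lie above 0 and 0 are filled.

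Kinases, cyclins and phosphatases that drive entry into mitosis formed 9 of the members. Of these 8 were lower in HSC than in GMP at each age, with medians of -0.89 log2 in young and -1.48 in old mice, and 3 fell with age in HSC. Cdk1, the kinase that starts mitosis, lay at 8.91, 9.55, 9.20, 8.85 and 8.98 log2 on the young HSC arrays and 8.49, 8.69 and 7.81 on the old ones, and at 9.98, 10.08, 10.06 and 9.84 on the young GMP arrays and 10.04, 10.38 and 10.20 on the old ones. All HSC arrays were below all GMP arrays, and all old HSC arrays below all young ones, with old HSC replicate 3 lowest. Cdk1 was 1.86-fold lower in HSC than in GMP in young mice (-0.89 ± 0.16, SE; limma adjusted p = 0.000319) and 3.66-fold lower in old mice (-1.87 ± 0.20; 8.7e-07). With age it was 1.70-fold lower in HSC (-0.77 ± 0.18; adjusted p = 0.0138), while in GMP the difference was 0.21 ± 0.19 and was not called.

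Ccnb2, a cyclin partner of Cdk1, was also lowest in old HSC, with more overlap between groups. Its levels were 10.45, 10.93, 10.47, 10.26 and 10.60 on the young HSC arrays, 9.50, 10.37 and 9.64 on the old HSC arrays, 11.22, 11.28, 11.18 and 10.80 on the young GMP arrays and 10.79, 11.30 and 11.08 on the old GMP arrays. Old HSC replicate 2 reached into the young HSC range, and young HSC replicate 2 lay above young GMP replicate 4. It was lower in HSC in young (-0.58 ± 0.17, adjusted p = 0.0165) and in old mice (-1.22 ± 0.21, 0.000203), and fell with age in HSC by 1.63-fold (-0.70 ± 0.19, 0.0232). Melk, a cell cycle kinase, also fell with age in HSC (-0.55 ± 0.15, adjusted p = 0.0251), and Ccna2, cyclin A2, had a like direction without a call (-0.37 ± 0.13, 0.0613).

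Polo-like kinase 1 and Aurora kinase A, which mature the centrosomes and build the spindle, were called between the cell types and not between the ages. Plk1 lay at 8.08, 8.17, 7.90, 7.32 and 7.68 on the young HSC arrays and 7.47, 8.02 and 6.88 on the old ones, against 8.83, 9.10, 8.86 and 8.63 on the young GMP arrays and 8.77, 9.07 and 8.96 on the old ones. The HSC groups overlapped with each other, with old HSC replicates 1 and 2 inside the young range, and neither overlapped with GMP. Plk1 was 2.04-fold lower in young (-1.03 ± 0.19, adjusted p = 0.000384) and 2.78-fold lower in old HSC than in the GMP of that age (-1.48 ± 0.23, 9.04e-05), and its age difference in HSC of -0.37 ± 0.21 was not called. Aurka lay at 8.72, 8.99, 8.79, 8.50 and 8.73 in young HSC, 8.24, 8.80 and 7.97 in old HSC, 10.00, 10.08, 9.88 and 9.65 in young GMP and 9.92, 10.14 and 10.13 in old GMP. All HSC arrays were again below all GMP arrays, by 2.23-fold in young (-1.15 ± 0.15, adjusted p = 5.23e-06) and 3.31-fold in old mice (-1.73 ± 0.18, 5.9e-07). In HSC the age difference was -0.41 ± 0.16 (adjusted p = 0.0918). The other genes of the group, Nek2, a kinase of centrosome separation, and Cdc25c, a further phosphatase that activates Cdk1, were lower in HSC at both ages and not called with age.

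The spindle checkpoint delays anaphase while kinetochores are unattached, and the anaphase-promoting complex ends that delay. Of 8 members 7 were lower in HSC in young and 8 in old mice, with medians of -0.86 and -1.32 log2. Bub1, a checkpoint kinase, lay at 8.10, 8.56, 8.09, 8.50 and 7.74 on the young HSC arrays, 7.90, 7.94 and 7.19 on the old HSC arrays, 10.05, 9.92, 9.71 and 9.90 on the young GMP arrays and 9.67, 10.09 and 10.06 on the old GMP arrays. Every HSC array was more than 1 log2 below every GMP array, and within HSC the ages overlapped. This was the largest difference of the group, 3.24-fold in young (-1.70 ± 0.17, adjusted p = 2.91e-07) and 4.80-fold in old mice (-2.26 ± 0.21, 1.43e-07), with an age difference in HSC of -0.52 ± 0.19 that was not called (adjusted p = 0.0739). Ttk, the Mps1 kinase that starts checkpoint signalling, lay at 8.14, 8.29, 8.04, 8.46 and 8.11 in young HSC, 7.38, 7.96 and 7.38 in old HSC, 9.56, 9.51, 9.46 and 9.31 in young GMP and 9.41, 9.83 and 9.83 in old GMP. Here the 4 ranges were separate except between young and old GMP. Ttk was 2.38-fold lower in HSC in young (-1.25 ± 0.13) and 4.34-fold lower in old mice (-2.12 ± 0.16), and fell 1.56-fold with age in HSC (-0.64 ± 0.15, adjusted p = 0.0132).

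Bub1b encodes BubR1, which together with Mad2 keeps Cdc20 from activating the anaphase-promoting complex. It lay at 9.16, 9.56, 9.13, 9.45 and 9.0 in young HSC, 8.54, 9.21 and 8.42 in old HSC, 10.20, 10.20, 10.19 and 10.24 in young GMP and 10.06, 10.31 and 10.20 in old GMP. The GMP arrays spanned a narrow range, and old HSC replicate 2 lay within the young HSC range. Bub1b was lower in HSC by 1.93-fold in young (-0.95 ± 0.15, adjusted p = 4.96e-05) and 2.76-fold in old mice (-1.47 ± 0.18, 4.18e-06), and fell with age in HSC (-0.54 ± 0.16, 0.0354). Cdc20, the target of this inhibition, lay at 8.53, 8.97, 8.97, 8.60 and 8.47 in young HSC, 8.37, 8.40 and 7.64 in old HSC, 9.77, 9.63, 9.47 and 8.90 in young GMP and 8.99, 9.39 and 9.49 in old GMP. Young GMP replicate 4 lay below young HSC replicates 2 and 3, and the old HSC arrays were below all young ones. Cdc20 was lower in HSC in both ages (-0.73 ± 0.19 and -1.15 ± 0.23), and its age difference of -0.57 ± 0.20 in HSC missed the threshold (adjusted p = 0.0709). Mad2l1, which encodes Mad2, fell with age in HSC with a small error (-0.57 ± 0.11, adjusted p = 0.00552). Its 3 old HSC arrays lay at 9.91, 9.95 and 9.92, below all young HSC arrays (10.52, 10.63, 10.42, 10.52 and 10.41). Separase (Espl1), the protease that cuts cohesin at anaphase, was lower in HSC by nearly the same amount in both ages (-0.78 ± 0.11 and -0.82 ± 0.13), and its age difference in HSC was -0.01 ± 0.12.

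Centromere and kinetochore genes form the platform on which chromosomes meet the spindle. All 9 members were lower in HSC than in GMP at both ages, with medians of -0.94 and -1.53 log2, and 4 of 9 fell with age in HSC. Cenpk, a subunit of the constitutive centromere network, lay at 9.35, 9.72, 9.60, 10.11 and 9.69 on the young HSC arrays and 8.82, 9.03 and 8.81 on the old ones, against 10.75, 10.59, 10.66 and 10.51 on the young GMP arrays and 10.37, 10.46 and 10.77 on the old ones. The old HSC arrays were below all others, and young HSC replicate 4 was the highest of its group. The age difference in HSC, -0.81 ± 0.14 or 1.75-fold, was the largest of the 47 members (adjusted p = 0.00361) and was the only call left with the interquartile range as a covariate (-0.94 ± 0.17, adjusted p = 0.0197). Between the cell types Cenpk differed by -0.94 ± 0.13 in young and -1.65 ± 0.16 in old mice. Its partner Cenph had an age difference in HSC of -0.55 ± 0.18 that was not called (adjusted p = 0.0567).

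The Ndc80 complex, the kinetochore's grip on microtubules, has 4 subunits, of which 2 were called with age in HSC. Spc25 fell in old HSC (-0.74 ± 0.14, adjusted p = 0.00493), from 8.15, 8.69, 8.40, 8.31 and 8.59 on the young arrays to 7.61, 7.77 and 7.69 on the old ones, without overlap. Nuf2 also fell (-0.54 ± 0.13, 0.0138). Ndc80 (-0.27 ± 0.13) and Spc24 (-0.44 ± 0.17) were not called, and the differences between subunits were not tested. All 4 subunits were lower in HSC than in GMP at both ages. Cenpa, the histone variant that marks centromeres, fell with age in HSC (-0.64 ± 0.15, adjusted p = 0.0142), with old HSC replicates 1 and 3 at 7.84 and 7.79 and replicate 2 at 8.46, just under the lowest young array at 8.53.

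Cenpe and Cenpf had age differences above 0 in HSC, without a call. Cenpe, a kinesin that carries chromosomes to the spindle equator, lay at 7.63, 7.90, 7.74, 9.01 and 7.89 on the young HSC arrays, 8.29, 8.58 and 7.94 on the old HSC arrays, 9.51, 9.61, 9.38 and 9.98 on the young GMP arrays and 9.44, 10.11 and 9.84 on the old GMP arrays. The old HSC arrays were above 4 of the 5 young ones, and young HSC replicate 4 was above them all. Cenpe was 3.00-fold lower in HSC than in GMP in young mice (-1.59 ± 0.23, adjusted p = 2.12e-05) and 2.88-fold in old mice (-1.53 ± 0.28, 0.000341), and its age difference in HSC was 0.24 ± 0.25 (adjusted p = 0.514). Cenpf, a large protein of the outer kinetochore, lay at 7.70, 7.62, 7.84, 9.17 and 7.85 in young HSC, 8.35, 8.90 and 8.09 in old HSC, 8.89, 9.05, 8.83 and 9.45 in young GMP and 9.04, 9.79 and 9.53 in old GMP. Without replicate 4 the young HSC arrays spanned 7.62 to 7.85, below all 3 old ones. With it, the age difference in HSC was 0.41 ± 0.28 (adjusted p = 0.319).

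The chromosomal passenger complex corrects wrong attachments and later directs cytokinesis. All 4 subunits were lower in HSC than in GMP without overlap at both ages, with medians of -1.14 and -1.58 log2, and none was called with age. Aurkb, its kinase, lay at 8.10, 8.39, 8.22, 8.25 and 8.10 on the young HSC arrays and 8.0, 8.50 and 8.09 on the old ones, against 9.55, 9.63, 9.58 and 9.63 on the young GMP arrays and 9.70, 9.92 and 9.73 on the old ones. The gap between cell types was over 1 log2 on every array, and the HSC arrays of both ages were intermixed. Aurkb had the smallest adjusted p of all members in young mice (-1.39 ± 0.11, 2.62-fold, adjusted p = 9.04e-09), while its age difference in HSC was -0.01 ± 0.12. In GMP the 3 old arrays lay above the 4 young ones, by 0.19 ± 0.12, without a call.

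Birc5 (survivin) and Cdca8 (borealin) hold the complex at the centromere. Birc5 lay at 9.13, 9.37, 9.21, 9.05 and 9.33 in young HSC, 8.65, 9.31 and 8.40 in old HSC, 10.36, 10.41, 10.33 and 10.09 in young GMP and 10.17, 10.75 and 10.13 in old GMP. Old HSC replicate 2 was well above the other two old arrays and inside the young range. Birc5 was 2.11-fold lower in HSC in young (-1.08 ± 0.16) and 2.96-fold lower in old mice (-1.56 ± 0.20), with an age difference in HSC of -0.43 ± 0.18 (adjusted p = 0.105). Cdca8 lay at 8.25, 8.90, 8.37, 8.99 and 8.42 in young HSC, 7.98, 8.50 and 7.94 in old HSC, 9.78, 9.89, 9.73 and 9.74 in young GMP and 9.81, 9.96 and 10.21 in old GMP. Here too old HSC replicate 2 lay among the young arrays. Cdca8 was 2.30-fold and 3.62-fold lower in HSC in young and old mice (-1.20 ± 0.16 and -1.85 ± 0.19), and its age difference in HSC was -0.44 ± 0.17 (adjusted p = 0.0894). Incenp, the scaffold of the complex, was also lower in HSC at both ages (-1.35 ± 0.15 in old mice), with -0.16 ± 0.13 for age in HSC.

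Spindle motors and spindle-binding proteins included the largest difference between the cell types in young mice and only 1 call with age. Of 8 members 7 were lower in HSC in young and 8 in old mice, with medians of -0.86 and -1.52 log2. Kif15, a kinesin that helps to keep spindle poles apart, lay at 8.40, 8.45, 8.20, 9.17 and 7.80 on the young HSC arrays, 8.13, 8.57 and 8.13 on the old HSC arrays, 10.42, 10.29, 10.13 and 10.06 on the young GMP arrays and 10.15, 10.59 and 10.58 on the old GMP arrays. Young HSC replicate 4 was the highest HSC array and replicate 5 the lowest. Kif15 was 3.53-fold lower in HSC in young (-1.82 ± 0.19, adjusted p = 6e-07) and 4.49-fold lower in old mice (-2.17 ± 0.24, 1.18e-06), with -0.13 ± 0.21 for age in HSC. Tpx2, the activator of Aurora A on the spindle, lay at 8.70, 9.09, 8.87, 9.03 and 8.84 in young HSC, 8.41, 8.54 and 7.96 in old HSC, 9.73, 9.80, 9.50 and 9.70 in young GMP and 9.65, 10.10 and 9.86 in old GMP. Its HSC groups did not overlap. Tpx2 was the member of this group that fell with age in HSC (-0.60 ± 0.14, 1.52-fold, adjusted p = 0.0142), and it was lower in HSC than in GMP at both ages (-0.78 ± 0.13 and -1.56 ± 0.16). The motor Kif11, which pushes the poles apart, the microtubule depolymerases Kif18a and Kif2c and the chromokinesin Kif4 differed by -0.09 ± 0.21, -0.18 ± 0.18, -0.26 ± 0.17 and -0.46 ± 0.15 with age in HSC, and none was called.

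Genes of the central spindle and cytokinesis, which separate the daughter cells, included the largest difference of all in old mice. All 6 were lower in HSC at both ages, with medians of -0.73 and -1.36 log2, and Prc1, Racgap1 and Ect2 fell with age in HSC. Ect2, the exchange factor that activates RhoA at the cleavage furrow, lay at 7.77, 8.01, 7.82, 7.95 and 7.70 on the young HSC arrays, 7.17, 7.23 and 6.85 on the old HSC arrays, 9.39, 9.43, 9.07 and 9.22 on the young GMP arrays and 9.26, 10.02 and 9.50 on the old GMP arrays. The 3 old HSC arrays were below all young ones, and every HSC array was more than 1 log2 below every GMP array. Ect2 was 2.69-fold lower in HSC in young (-1.43 ± 0.14, adjusted p = 1.7e-07) and 5.70-fold lower in old mice (-2.51 ± 0.17, 2.03e-09). It fell 1.70-fold with age in HSC (-0.77 ± 0.15, 0.00633), while in GMP its age difference was 0.32 ± 0.16.

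Racgap1 recruits Ect2 to the central spindle as a subunit of centralspindlin. It fell with age in HSC (-0.64 ± 0.17, adjusted p = 0.0241), with old HSC arrays at 7.41, 7.85 and 7.28 and young ones at 8.11, 8.19, 8.08, 8.65 and 7.71. Old HSC replicate 2 lay above young HSC replicate 5. Its partner in centralspindlin, the kinesin Kif23, was not called (-0.05 ± 0.20), and the difference between both was not tested. Prc1, which bundles the central spindle's microtubules, fell as well (-0.50 ± 0.15, adjusted p = 0.0338), whereas the kinesin Kif20a (-0.36 ± 0.13, 0.0702) and anillin (Anln; -0.33 ± 0.18, 0.224) were not called.

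Top2a, which untangles sister chromatids, and Mki67, the Ki-67 protein that coats mitotic chromosomes and is the usual stain for cycling cells, had age differences of opposite sign in HSC, neither of them called. Top2a lay at 10.43, 10.74, 10.34, 11.03 and 10.55 on the young HSC arrays, 10.10, 10.58 and 10.17 on the old HSC arrays, 11.52, 11.47, 11.32 and 11.52 on the young GMP arrays and 11.44, 11.86 and 11.81 on the old GMP arrays. Both HSC groups lay below both GMP groups and overlapped with each other. Top2a was 1.79-fold lower in HSC in young (-0.84 ± 0.14, adjusted p = 0.000139) and 2.68-fold lower in old mice (-1.42 ± 0.17, 4.35e-06), with -0.34 ± 0.15 for age in HSC (adjusted p = 0.144). Mki67 lay at 9.09, 8.90, 8.89, 10.28 and 8.63 in young HSC, 9.44, 9.81 and 9.19 in old HSC, 10.38, 10.32, 10.14 and 10.74 in young GMP and 10.52, 10.81 and 10.75 in old GMP. Young HSC replicate 4 was within the GMP range, and the other 4 young HSC arrays were below all 3 old HSC arrays. Mki67 was lower in HSC in both ages (-1.24 ± 0.24, adjusted p = 0.000523; -1.21 ± 0.29, 0.00412), and its age difference in HSC was 0.32 ± 0.26 (adjusted p = 0.398). Cdca3, a promoter of mitotic entry, was lower in HSC at both ages (-1.07 ± 0.15 and -1.35 ± 0.18) and had -0.17 ± 0.16 for age in HSC.

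With a single array left out, young HSC replicate 4, 4 of 47 members were called higher with age, a share near that of all genes (9.62%). In the same setting 19 were called lower (40.4%, against 17.9% of all genes). Replicate 4 exceeded the average of the remaining 4 young HSC arrays by 1.42 log2 for Cenpf, 1.40 for Mki67 and 1.22 for Cenpe, and by at most 0.95 for any other member. Over all 47 members it was the highest young HSC array for 22 and the lowest for 7, with a median difference of 0.21. Without it, Mki67 (0.60 ± 0.16, limma adjusted p = 0.00948), Cenpf (0.69 ± 0.19, 0.0122), Cenpe (0.48 ± 0.17, 0.0426) and Cdc25b (0.32 ± 0.11, 0.0419) were called higher in old HSC, against 9.62% of all genes, while 19 members were called lower, against 17.9%. The direction of Mki67, Cenpf and Cenpe turned with the scaling: with the interquartile range as a covariate and all arrays kept, they differed by -0.28, -0.35 and -0.41, none of them called, and after quantile normalization by 0.62, 0.59 and 0.39, likewise not called. The same array had the highest Xist level of all arrays and the lowest Y-linked level, and the part of these differences in the result was not tested.

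**Figure D4:**
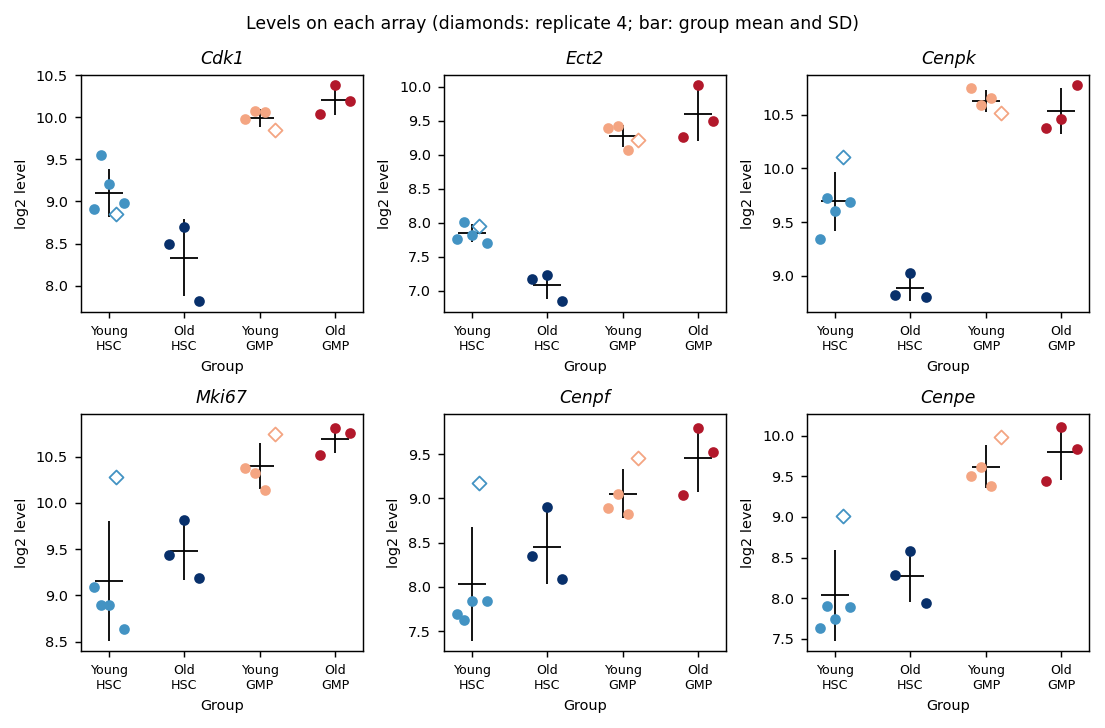
Log2 level on each array for 3 members that fell with age in HSC (Cdk1, Ect2, Cenpk) and for Mki67, Cenpf and Cenpe, by group, with bars for the group mean and SD and diamonds for replicate 4 of each young group. The diamond of young HSC stands at 10.28, 9.17 and 9.01 for Mki67, Cenpf and Cenpe, far above the other 4 young HSC arrays, but within or near its group for Cdk1 and Ect2. For Cenpk it stands at 10.11, above the other 4 at 9.35 to 9.72.

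Over the whole set, the level moved between arrays as well as between groups. The mean over the 47 members was 8.61 ± 0.17 log2 in young HSC (SD, n = 5), 8.26 ± 0.27 in old HSC (n = 3), 9.53 ± 0.06 in young GMP (n = 4) and 9.70 ± 0.20 in old GMP (n = 3). Old HSC replicate 2, at 8.55, was the highest old HSC array for 42 of 47 members and lay above young HSC replicates 1, 3 and 5 in this mean. Old HSC replicate 3, at 8.03, was the lowest for 31. In old GMP replicate 2 was the highest for 38 members and replicate 1 the lowest for 42, so within each old group most genes ordered the arrays alike. In young GMP no array held such a place, and replicate 4 was the highest for 13 members and the lowest for 22. Only Cdc25c fell below the lower quartile of an array, on old HSC replicate 3 (5.90). The lower quartile is not a measure of background. Some members lay below the array median in HSC. Among them was Ect2 on the old HSC arrays, at 7.17, 7.23 and 6.85 against medians of 7.37, 7.42 and 7.32.

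In GMP no mitotic gene was called with age. The count was 0 of 47 in limma, against 0% of all genes, and 3 of 47 members had an unadjusted p under 0.05, against 4.51%. The smallest adjusted p was 0.294 over all genes. Most differences were above 0 (38 of 47, against 48.1% of all genes), with a median of 0.18 log2. The largest were in Nusap1, a microtubule-bundling protein (0.54 ± 0.17, adjusted p = 0.881), which lay at 9.60, 9.75, 9.49 and 9.93 on the young GMP arrays and 9.93, 10.51 and 10.25 on the old ones, and in Kif23 (0.50 ± 0.21). For Nusap1 the old arrays exceeded the young ones except that old replicate 1 lay just below young replicate 4. Nek2, Cenph, Aurkb and Kif4 were higher on all 3 old GMP arrays than on all 4 young ones (3.1% of all genes), and 0 members were lower on all of them (3.72%).

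Whether age acted differently in HSC and GMP was tested as the difference of both age effects. It was called for 0 of 47 members, against 0.0933% of all genes, with 24 members at an unadjusted p under 0.05, against 11.2%. The values of 43 members were below 0 (47.6% of all genes), with a median of -0.53 log2 against 0.02 over all genes. Ect2 came closest (-1.08 ± 0.22, limma adjusted p = 0.0773), and the next largest were -0.98 ± 0.26 for Cdk1 and -0.90 ± 0.27 for Cenph. The difference of both age effects was also called for 0 members after quantile normalization (smallest limma adjusted p of a member 0.0519). The same held with the interquartile range as a covariate (0.0885) and without old HSC replicate 1 (0.145), 2 (0.05002) or 3 (0.0944). Without young HSC replicate 4 this difference was called below 0 for 4 members, Ect2, Nuf2, Mad2l1 and Spc25, while the share over all genes rose to 0.876%. Without replicate 4 of both young groups Ect2 alone of the members was called (-1.04, limma adjusted p = 0.0424, against 0.632% of all genes). A block of the replicate number within each age pairs HSC with GMP in old as well as young mice, although pairing was less clear in old mice. With this block Ect2 was again the 1 member called (-1.12 ± 0.18, limma adjusted p = 0.0460, against 0.0881%). Cenpe, Cenpf and Mki67, in contrast, differed by 0.06 ± 0.36, 0.01 ± 0.41 and 0.02 ± 0.37, with errors many times those values.

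Other genes of the division machinery, outside the 48, were also compared between the cell types. Over all genes 10.9% were lower and 13.6% higher in young HSC than in young GMP. Of 29 other kinetochore and centromere genes 20 were lower and 1 higher in young HSC than in GMP (median -0.63 log2), with Knl1, the platform on which the checkpoint assembles, at -1.97 ± 0.25. Of 20 condensin and cohesin genes 11 were lower (median -0.54), led by Sgo2a, a protector of centromeric cohesin, at -1.88 ± 0.17. Of 25 other spindle, kinesin and cytokinesis genes 16 were lower and 2 higher (median -0.49), and of 22 genes of mitotic entry and late cell cycle transcription 14 were lower (median -0.58), among them Mybl2, the B-Myb factor of the CHR-bound complex (-1.31 ± 0.15). The list of the anaphase-promoting complex, which also works outside mitosis, holds its subunits, the activator Fzr1, the inhibitor Fbxo5 and the substrate Pttg1 (securin). Of these 17 genes 3 were lower, the subunit gene Anapc15, Fbxo5 and Pttg1, and the median was 0.00. In old mice these counts were 21, 12, 21, 16 and 4 in the same order of lists, and 0, 0, 2, 0 and 0 were higher, against 13% lower and 9.25% higher over all genes.

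With age in HSC, where 9.22% of all genes were lower, the anaphase-promoting complex list had 6 of 17 genes lower (median -0.33 log2), such as its subunit Cdc26 (-0.92 ± 0.22, adjusted p = 0.0146) and its inhibitor Fbxo5 (-0.72 ± 0.13, 0.00334). Mitotic entry genes had 8 of 22 lower (median -0.40), including the Cdk1-binding subunits Cks2 (-0.84) and Cks1b (-0.75). In the remaining lists of division genes the share lower was nearer to or below that of all genes. Of the other kinetochore genes 4 of 29 were lower, led by Cenpp (-0.87 ± 0.19, adjusted p = 0.00962), of the other spindle genes 3 of 25, led by the gamma-tubulin gene Tubg1 (-0.69 ± 0.18, 0.0219), and of the condensin and cohesin genes 1 of 20, Cdca5, the sororin gene (-0.54 ± 0.15, 0.0261). The 6 genes of the MCM helicase, which opens DNA for replication before mitosis, were all lower (median -0.75), and of these Mcm6 was also called in the difference of both age effects (-0.85 ± 0.16, adjusted p = 0.0461). None of these genes was called with age in GMP by limma, as for all genes.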

How the data were processed

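RNA was measured on 15 Affymetrix arrays, and the authors deposited a table of log2 expression values for 23309 probe sets with 0 missing values. RMA, affy and limma are listed, with no version, in the submitters' processing notes. The deposited arrays nevertheless did not share a common spread. The narrowest interquartile range, 1.96 log2, belonged to old HSC replicate 2, and the widest, 2.69 log2, to young HSC replicate 1. The main fit took the values as deposited, without further normalization between arrays. Why the spread differed was not tested. That the values are log2 was read from the deposited values themselves; filters and a genome build are not given in the sources used here. Depth has no meaning for arrays, and the number of arrays limits the precision.

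Probe sets were named from the platform annotation. Of them 20728 had 1 symbol, 1174 several and 1407 none, and those without exactly 1 symbol were left out. The Entrez identifiers of 20685 were found in the RefSeq gene table. For 804 genes with several probe sets (among the members, Top2a) the brightest over all arrays was used, which left 19296 genes. Array columns were matched to samples by title, with 0 left over. No 2 arrays were identical, and replicates correlated at up to 0.995.

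With limma 3.58.1 in R 4.3.3, 4 group means were estimated from the 15 arrays together (lmFit and eBayes), with Benjamini-Hochberg adjustment across the genes tested. A gene was called at an adjusted p under 0.05. Differences are HSC minus GMP within each age, old minus young within each cell type, and the HSC age effect minus the GMP age effect. The script was tested on simulated data. The alternatives were quantile normalization, each array's interquartile range as a covariate, a filter on dim genes (15362 left), the mean of a gene's probe sets, only the groups compared, the replicate number as a block, leaving out each array, and leaving out arrays whose sex-linked genes stand apart. A block within each age was added after seeing the data.

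Replicate numbers were checked for pairing. Deviations from the group mean of HSC and GMP arrays with the same number correlated at 0.16 to 0.52 in young mice (4 pairs) and at 0.05 to 0.42 in old mice (3 pairs). A pairing of HSC with GMP was thus clearer in young mice than in old mice. The main fit used no pairing, and the block within each age pairs the arrays of both ages. Across ages 1 of 6 pairs within a cell type exceeded 0.1, and no pairing was assumed.

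The members, role groups and lists were chosen with earlier results of these data known. Any member could be named. Values on every array are given for Cdk1, Ccnb2, Mki67, Top2a, Aurkb, Birc5, Bub1b, Cdc20 and Plk1, and for the member of each role group with the largest difference between HSC and GMP in young mice or between old and young HSC. Cdc25b, Cenpf, Mad2l1, Spc25, Racgap1 and Nusap1 were added after their values were seen. From related lists up to 3 called genes by size were named. CCAAT and the CHR letters (TTTGAA or TTCGAA) were looked for on both strands of RefSeq promoter windows (GRCm38.p6).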

Additional observations from a re-analysis of the deposited data

Results flagged for a closer look

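In 94 groups of 4 or 5 arrays (47 members in young HSC and in young GMP), the gap between the highest or lowest array and its nearest neighbour was compared with the whole range of the group. In 5 groups this ratio passed Dixon's 95% critical value, which chance alone passes in about 1 of 20 groups. All 5 had replicate 4 as the highest array. In young HSC the ratio was 0.857 for Cenpf (level 9.17 log2), 0.805 for Cenpe (9.01) and 0.725 for Mki67 (10.28). In young GMP it was 0.864 for Bub1b (10.24) and 0.848 for Nek2 (8.36). The GMP outliers lay close to their groups in absolute terms: Bub1b spanned 10.19 to 10.24 and Nek2 8.20 to 8.36.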

How the results depend on the processing

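The count of members lower in HSC than in GMP in young mice was 44, and 25 with the young arrays limited to those with Xist near the old level (1 per group, assumed to vary like the others). It ranged from 41 to 45 when 1 array was left out, and was 45 with the replicate block within each age. In old mice it ranged from 44 to 46. Over the alternatives run, 25 of the 44 young calls and 43 of the 46 old calls were kept in each. The count with age in HSC (14, all lower, against 9.22% of all genes lower and 2.25% higher) was 4 after quantile normalization, 1 with the interquartile range as a covariate, 9 with only the groups compared (all lower, against 4.06%) and 0 with the Xist limit. The replicate block also ties old to young arrays of the same number, a pairing across ages that was not assumed. With this block the count with age in HSC was 27, of which 26 were lower (19.2% of all genes). The 1 higher (13.3%) was Cenpf (0.61 ± 0.20, limma adjusted p = 0.0286). Without replicate 4 of both young groups it was 24, of which 20 were lower (19.6%) and 4 higher (12.4%), so the share over all genes rose along with the count of members. It was 6 to 23 when 1 array was left out, the 23 being 19 lower and 4 higher without young HSC replicate 4, with medians of -0.53 to -0.28 log2, and 0 of the 14 calls were kept in each alternative. With age in GMP (0) it was 2 with the replicate block, Nusap1 and Kif23, both higher (against 0.15% of all genes). For the difference of both age effects (0) it was 4 with the replicate block (all below 0, against 0.176% of all genes), 1 without replicate 4 of both young groups, 1 with the block within each age, and 0 to 4 when 1 array was left out. The causes were not tested. Of HSC and GMP arrays with a counterpart, 7 of 8 young and 4 of 6 old correlated best with their own number, a hint from the data and not from the design.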

Other observations

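Across the 47 members, the difference between HSC and GMP in young mice and that in old mice, which share no arrays, correlated at r = 0.75 (Spearman's rho = 0.67). The age difference in HSC and that in GMP, which also share no arrays, correlated at r = 0.28 (rho = 0.24). Both are descriptions across genes, which are not independent replicates, and the members share the arrays' depth of signal and scaling.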
